A study of Drosophila melanogaster with 4 samples.

Results

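The transcripts described here were abundant in the intestine of a kdm5 mutant fly and at least doubled there relative to the strain w1118. A transcript was chosen when its mean over the mutant libraries was at least 50 TPM and at least 2 times its mean over the w1118 libraries. TPM is a measure of transcript abundance corrected for transcript length and scaled to the library. Of 1761 transcripts in the deposited table, 208 met both thresholds, and 49 of these were left out because their symbols belong to named families, such as the glutathione S-transferases, Bomanins, maltases, cytochrome P450s and large ribosomal subunit proteins. The remaining 159 transcripts are the members; 154 matched an annotated transcript, of 150 genes, and 5 kept their identifier, so the exclusion by symbol could not be applied to those 5.

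The groups were kdm5 mutant female fruit flies (Drosophila melanogaster) carrying the alleles k6801 and 10424 (2 libraries), and female w1118 flies, a white-eyed laboratory strain (2 libraries). Flies were 3 to 5 days old, and each library came from a separate pool of 30 dissected intestines; the labels give the tissue as intestine and the source as the whole animal. The labels do not say that the mutant was brought into the w1118 background, so an effect of kdm5 and a difference of background cannot be told apart. Nor do they say whether the pools of a genotype came from separate crosses, so p-values measure only the spread between these libraries, which may be technical.

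KDM5 is an enzyme that takes methyl groups off a lysine of histone H3, a mark found at the starts of active genes. The fly intestine is lined mainly by enterocytes, which secrete digestive enzymes, take up sugars, amino acids and lipids, and process them through glycolysis, the pentose phosphate pathway and oxidation in mitochondria and peroxisomes. It also holds stem cells, hormone-secreting enteroendocrine cells and a coat of visceral muscle, and it makes antimicrobial peptides when challenged.

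The mutated gene was measured first. The listed Kdm5 transcript had 0.0768 and 0.0361 TPM in mutant guts, against 1.43 and 0.639 TPM in w1118 guts. The order of the libraries matched their labels. The strains also differed in the transcript of the eye-colour gene white. It had 8.82 and 13.4 TPM in mutant guts and was listed at 0 and 0.0130 TPM in w1118 guts. The transcript of ry (rosy) had 31.5 and 28.3 TPM in mutant guts, against 9.02 and 7.90 TPM in w1118 guts. Whether these reads came from each gene's own locus was not tested. The table holds only transcripts with an authors' deposited p below 0.05, so a gene not named in it may have been present and unchanged. Sequencing depth cannot be read from TPM and is unknown here, and no counting interval could be given. Because the material is bulk tissue, more RNA per cell and more cells of a type cannot be told apart.

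Since the members were chosen by their levels in this comparison, their values are a description, and no test of them is read as support. In a limma fit of the whole table on log2(TPM + 1), all 159 members passed an adjusted p of 0.05 over the table, where 77.1% of the whole table was called in either direction and 53.7% as higher in the mutant. The members were picked by this difference, so nothing is read from their share. In all 159 both mutant libraries lay above both w1118 libraries, as they did for 58.8% of the table. That share was every listed transcript with a higher mutant mean (1036), so separation is no trait of the members alone. In 122 of them the lower mutant library was at least 2 times the higher w1118 library, and the smallest such ratio was 1.20.

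Together the members summed to 42136 and 43461 TPM in the mutant libraries and to 11735 and 13795 TPM in the w1118 libraries. With each library's total taken as 1000000 TPM, that is 4.21% and 4.35% of the mutant libraries, against 1.17% and 1.38% of the w1118 libraries. The median member was 2.96-fold higher in the mutant, with 80 between 2- and 3-fold, 50 between 3- and 5-fold, 19 between 5- and 10-fold and 10 above. Of all 1761 listed transcripts, 1036 had a higher mutant mean, the share to set beside the counts of lists below. Members in a list are higher by the rule, so only its other transcripts could lie in either direction. The median of these 1036 was 2.58-fold. A fold is the ratio of group mean TPM. By level, 69 members lay between 50 and 100 TPM in the mutant, 66 between 100 and 500, 18 between 500 and 1000, and 6 at 1000 TPM or more.

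**Figure D1:**
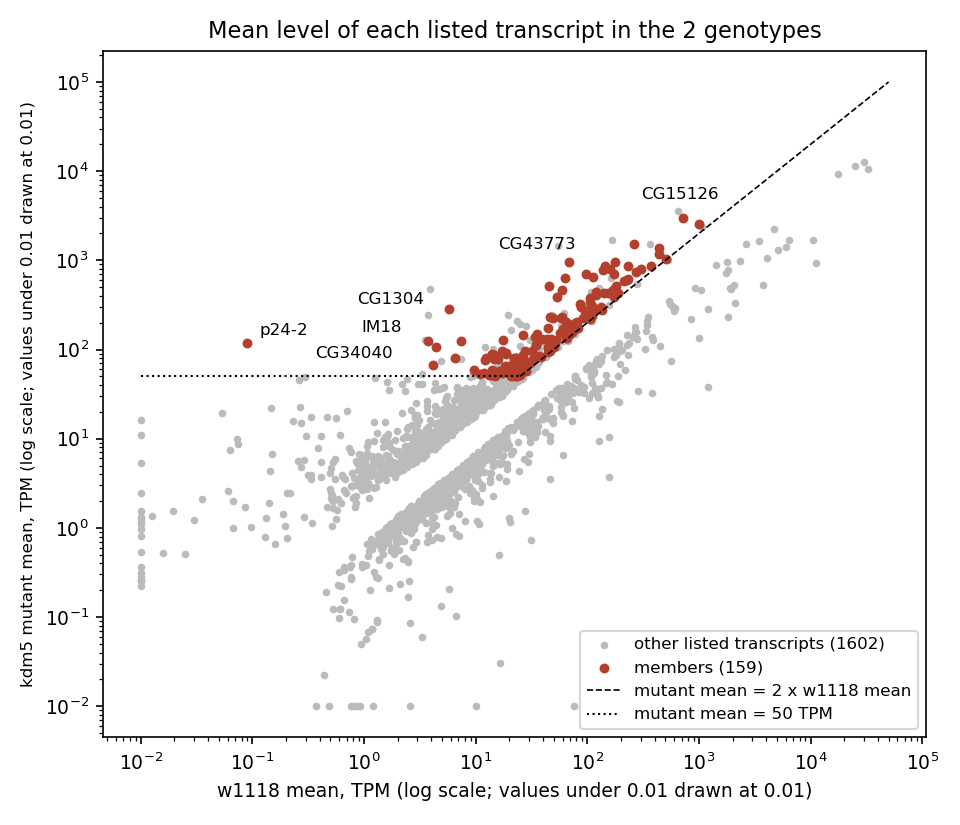
Mean TPM of every listed transcript in the kdm5 mutant (vertical axis, log scale) against w1118 (horizontal axis, log scale), with the 159 members in red, the other 1602 listed transcripts in grey, and the 2 thresholds of the rule as lines. Each point is a mean of 2 libraries; means near 0 are drawn at the left and lower edges. p24-2 lies apart from the other members, with 118 TPM for mutant guts and 0.0904 TPM for w1118 guts, and the empty band along the diagonal is where the table lists no transcript.

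Near the thresholds the members did not stand apart from the transcripts outside. At the level threshold EndoGI, Sgt1 and CG40486 lay just inside, with mutant means of 50.1, 50.3 and 50.4 TPM. Transcripts of acs, CG3500 and CG13510 lay just outside it, at 49.1, 48.5 and 46.8 TPM. At the ratio threshold Rab9, CG15423 and l(1)G0320 lay just inside (2.02-, 2.05- and 2.06-fold), and Sf3b6, Uch and ThrRS just outside (1.99-, 1.98- and 1.97-fold).

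The most abundant members were mostly genes known only by a CG number. Of the 12 with the highest mutant mean, 11 had such a symbol, and the other was Taldo. CG15126 (BDGP6.54, chromosome arm 2R, 19690798 to 19691078) stood at 2659 and 3268 TPM in mutant guts, against 651 and 791 TPM in w1118 guts. CG13321 stood at 2211 and 2899 TPM in mutant guts, against 893 and 1098 TPM in w1118 guts, and CG4363 at 1924 and 1139 TPM in mutant guts, against 150.3 and 378 TPM in w1118 guts. These 3 headed the members by mutant level. In each, as in every member, the genotypes were separate, although the w1118 libraries of CG4363 differed by more than 2 times. CG13315 had 1529.9 and 1208 TPM in mutant guts, against 412 and 472 TPM in w1118 guts. CG14500 had 1215 and 1119 TPM in mutant guts, against 455 and 425 TPM in w1118 guts, and CG15423 had 868 and 1219 TPM in mutant guts, against 503 and 517 TPM in w1118 guts. Leaving out 1 library placed the ratio of CG4363 between 4.05 and 10.2. CG15126, CG13321, CG13315, CG14500 and CG15423 had w1118 means of 439.9 TPM (CG14500) or more, so they were abundant in either genotype.

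Below them, CG43773 had the highest ratio among the 12, with 775 and 1149 TPM in mutant guts, against 59.2 and 76.9 TPM in w1118 guts, 14.1-fold higher. CG44250 stood at 881 and 859 TPM in mutant guts, against 360.2 and 391 TPM in w1118 guts, and CG34198 at 715 and 901 TPM in mutant guts, against 135 and 182 TPM in w1118 guts. The predicted proteins of CG15126, CG43773 and CG34198 are short, at 53, 75 and 59 residues, counted from the annotated coding sequence. No role was assigned to them, and the annotation used gives no function for any gene. Of the 154 matched members, 72 carried a CG number. For 111 members a role was assigned from general knowledge of the gene's name, synonyms or family. The 14 classes were chosen after the values were seen, and 43 members were left without a class.

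The members with the highest ratios included a digestive and a lipid enzyme. CG1304, a predicted serine protease (chromosome X, 20964527 to 20965419), stood at 326 and 249.7 TPM in mutant guts, against 4.59 and 6.99 TPM in w1118 guts, which is 49.7-fold higher. In CG13086 the values were 136 and 111 TPM in mutant guts, against 7.75 and 7.15 TPM in w1118 guts (16.5-fold). The Agpat2 transcript FBtr0340242, from a gene for an acyltransferase that makes phosphatidic acid, had 52.0 and 81.0 TPM in mutant guts, against 3.20 and 5.15 TPM in w1118 guts (15.9-fold). The other listed Agpat2 transcript, FBtr0079703, had 35.3 and 48.5 TPM in mutant guts, against 11.5 and 11.3 TPM in w1118 guts (3.68-fold). In CG1304, CG13086 and FBtr0340242, each mutant library exceeded 10 times the higher w1118 library.

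CG34040 had 107 and 104 TPM in mutant guts, against 0.786 and 8.12 TPM in w1118 guts; its w1118 libraries differed so much that the ratio depended on them, from 13.0- to 134-fold over the 4 omissions of a library. CG9360, a short-chain dehydrogenase, had 83.8 and 78.3 TPM in mutant guts, against 4.91 and 8.24 TPM in w1118 guts (12.3-fold), and CG32444, a predicted aldose epimerase, had 665 and 614 TPM in mutant guts, against 61.5 and 65.5 TPM in w1118 guts (10.1-fold). The transcript FBtr0310320, which matched no annotated transcript, had 653 and 387 TPM in mutant guts, against 31.8 and 59.5 TPM in w1118 guts (11.4-fold). In these 4, as in every member, the genotypes did not overlap.

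Enzymes of glycolysis, the pathway that splits glucose to pyruvate, were present along most of its length. Members covered 7 steps or isoforms: Pgi, Tpi, Gapdh1, Gapdh2, Pgk, Pglym78 and Eno. Gapdh2, one of the glyceraldehyde-3-phosphate dehydrogenases, stood at 798 and 793 TPM in mutant guts, against 283 and 320.02 TPM in w1118 guts. Gapdh1, the other, stood at 572 and 606 TPM in mutant guts, against 214 and 217 TPM in w1118 guts. Both isoforms therefore differed by a like ratio, 2.64-fold and 2.74-fold. Eno (enolase, FBtr0077909) had 331 and 438 TPM in mutant guts, against 172 and 176 TPM in w1118 guts. Tpi, triosephosphate isomerase, had 289.8 and 302 TPM in mutant guts, against 129 and 138 TPM in w1118 guts. In each of these, as in every member, the mutant libraries lay above both w1118 libraries.

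Lower in level, Pglym78 (phosphoglycerate mutase) averaged 204 ± 10.4 TPM in mutant guts, compared with 80.4 ± 0.682 TPM in w1118 guts (SD, n = 2 each, as for all means below), Pgi (phosphoglucose isomerase, FBtr0088681) averaged 197 ± 25.9 TPM in mutant guts, compared with 77.1 ± 2.20 TPM in w1118 guts, and Pgk (phosphoglycerate kinase) averaged 157 ± 7.23 TPM in mutant guts, compared with 73.3 ± 2.56 TPM in w1118 guts. The 8 members of glycolysis and gluconeogenesis, counting fbp, spanned 2.15- to 3.03-fold. The rule set the lower limit at 2-fold, and 80 of all 159 members lay between 2- and 3-fold. These 8 summed to 2623 and 2818 TPM over mutant guts, against 1055 and 1118.11 TPM over w1118 guts. fbp encodes fructose-1,6-bisphosphatase, which works in the gluconeogenic direction, and had 105 and 89.1 TPM in mutant guts, against 30.3 and 34.0 TPM in w1118 guts. In a list of 13 glycolytic genes written after the values were seen, 9 had transcripts in the table. All 14 of these transcripts were higher in the mutant, 7 of them members and so higher by the rule, beside 1036 of all 1761 listed transcripts. The glycolytic transcripts that did not reach 50 TPM were of Hex-A (hexokinase), of Pfk (phosphofructokinase), and minor transcripts of Pgi and Eno. FBtr0071361 and FBtr0071362, both of Hex-A, had identical values in every library. Pfk stood at 10.6 and 18.5 TPM in mutant guts, against 4.55 and 4.91 TPM in w1118 guts for FBtr0088421. Hex-C, Ald1, PyK and Ldh, which encode another hexokinase, aldolase, pyruvate kinase and lactate dehydrogenase, had no transcript in the table.

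The pentose phosphate pathway, which branches from glycolysis to make NADPH and ribose, gave 5 members. Taldo (transaldolase) had 929.9 and 778 TPM in mutant guts, against 202 and 259.9 TPM in w1118 guts, a 3.70-fold difference. CG8036, a transketolase, had 498 and 539 TPM in mutant guts, against 172 and 186 TPM in w1118 guts. Both enzymes belong to the arm that returns pentoses to glycolysis. Pgd, the oxidative enzyme 6-phosphogluconate dehydrogenase, stood at 272 and 289 TPM in mutant guts, against 104 and 129 TPM in w1118 guts. Rpi, ribose-5-phosphate isomerase (FBtr0301852), stood at 141 and 137 TPM in mutant guts, against 32.0 and 36.5 TPM in w1118 guts, and Rpe, the epimerase, at 50.8 and 76.9 TPM in mutant guts, against 23.0 and 25.1 TPM in w1118 guts. In a list of 7 genes of this pathway written after the values were seen, these were the 5 with a transcript in the table. Zw, which encodes the entry enzyme glucose-6-phosphate dehydrogenase, and Pgls had none. The malic enzyme Men, which also yields NADPH, was a member through FBtr0330025 at 95.2 and 116 TPM in mutant guts, against 46.1 and 53.6 TPM in w1118 guts. Its other listed transcript, FBtr0082661, lay in the opposite direction, at 4.10 and 6.57 TPM in mutant guts, against 17.0 and 11.5 TPM in w1118 guts.

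Haem synthesis, which builds the iron-holding group of cytochromes and peroxidases, gave 4 members. Alas, the first and rate-limiting enzyme, stood at 94.2 and 129.9 TPM in mutant guts, against 38.6 and 30.8 TPM in w1118 guts. Pbgs, the next enzyme, stood at 61.4 and 52.9 TPM in mutant guts, against 23.5 and 21.3 TPM in w1118 guts. Further down the pathway Urod had 75.5 and 83.8 TPM in mutant guts, against 20.2 and 25.5 TPM in w1118 guts, and Coprox had 155 and 141 TPM in mutant guts, against 34.9 and 35.9 TPM in w1118 guts. All 4 were between 2.55- and 4.18-fold higher, and like every member they did not overlap between genotypes. The last enzymes of the pathway were also listed as higher but stayed under 50 TPM: Ppox had 17.6 and 22.1 TPM in mutant guts, against 8.87 and 8.76 TPM in w1118 guts, and FeCH, ferrochelatase, had 40.0 and 43.8 TPM in mutant guts, against 19.8 and 20.9 TPM in w1118 guts. In a list of 8 haem synthesis genes written after the values were seen, these 6 had a transcript in the table. All 6 were higher in the mutant, 4 of them members and so higher by the rule, beside 1036 of all 1761 listed transcripts. Coprox lies on 2L, 965 kb from Kdm5.

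**Figure D2:**
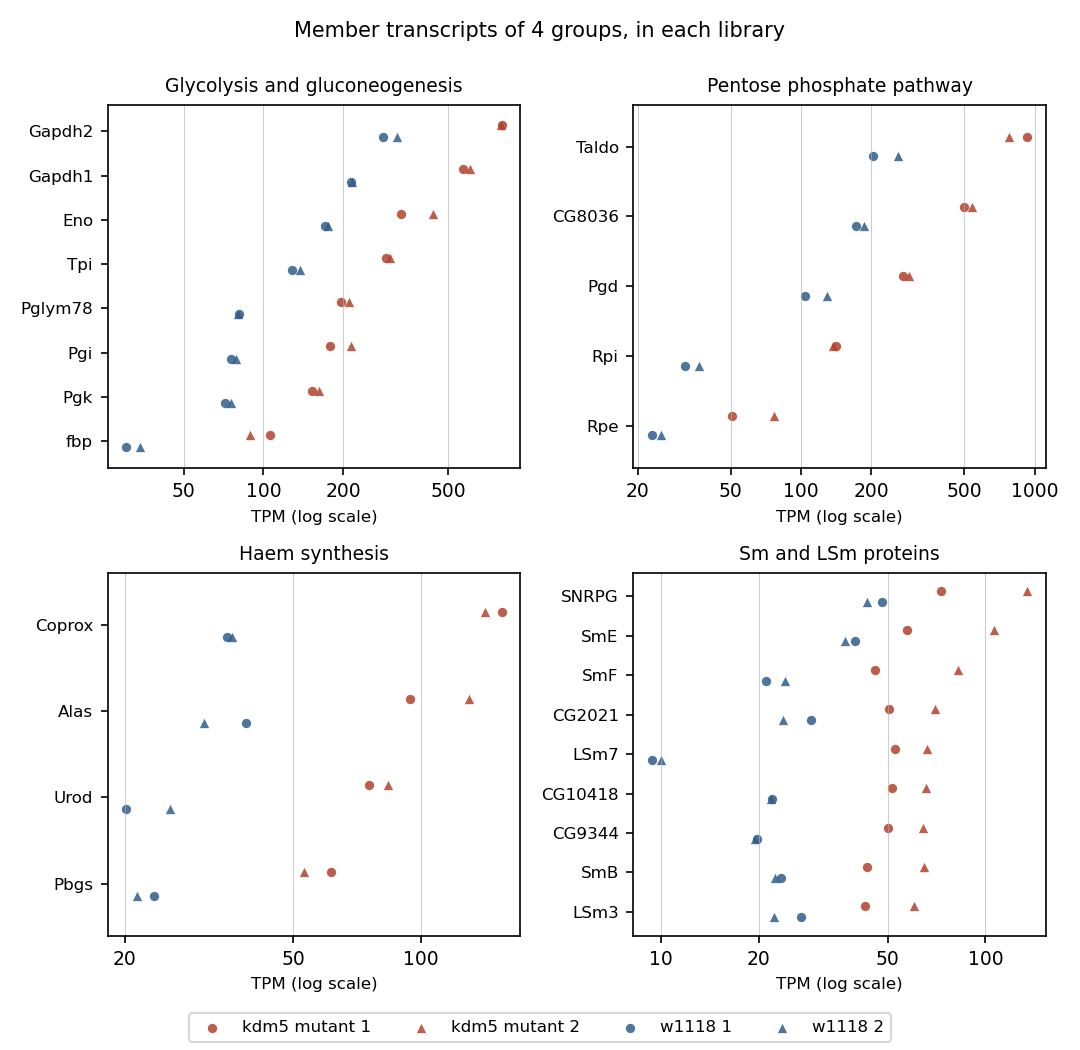
TPM (log scale) of member transcripts of glycolysis and gluconeogenesis, the pentose phosphate pathway, haem synthesis and the Sm and LSm proteins in each library; red points are kdm5 mutant libraries, blue points w1118 libraries, circles replicate 1 and triangles replicate 2. As for every member, no red point reaches a blue one within a gene. In the Sm and LSm panel every red triangle lies right of its red circle.

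The largest metabolic class was of dehydrogenases, reductases and other sugar enzymes, with 17 transcripts of 16 genes between 2.66- and 12.3-fold higher. They summed to 7053 and 5577 TPM over mutant guts, against 1134 and 1605 TPM over w1118 guts. CG3699, a short-chain dehydrogenase, had 1103 and 818 TPM in mutant guts, against 124 and 232 TPM in w1118 guts. CG3609, a predicted dehydrogenase, had 969 and 769.6 TPM in mutant guts, against 94.9 and 192 TPM in w1118 guts, with a ratio of 4.53- to 9.16-fold over the omissions of a library. Akr1B, an aldo-keto reductase that reduces sugars and aldehydes (FBtr0076139), had 836 and 561 TPM in mutant guts, against 162 and 186 TPM in w1118 guts. Gip, a predicted hydroxypyruvate isomerase, had 751 and 563 TPM in mutant guts, against 94.0 and 130.0 TPM in w1118 guts. The class also held both listed major transcripts of CG9331, a glyoxylate and hydroxypyruvate reductase, at 479.7 and 399 TPM in mutant guts, against 105 and 136 TPM in w1118 guts for FBtr0081419, and Sodh1 (sorbitol dehydrogenase), at 190.2 and 157 TPM in mutant guts, against 41.3 and 48.0 TPM in w1118 guts. In 16 of the 17 the first mutant library was the higher of the mutant pair.

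Oxidation of fatty acids and branched-chain amino acids gave 6 members. Echs1, the enoyl-CoA hydratase of mitochondrial beta-oxidation (FBtr0087643), had 499 and 441 TPM in mutant guts, against 154 and 187 TPM in w1118 guts. CG3902, a short and branched chain acyl-CoA dehydrogenase, had 321 and 289.7 TPM in mutant guts, against 109 and 112 TPM in w1118 guts. CG15093, 3-hydroxyisobutyrate dehydrogenase of valine breakdown, had 321 and 255 TPM in mutant guts, against 103 and 109.8 TPM in w1118 guts. Mfe2, the multifunctional beta-oxidation enzyme of peroxisomes, showed the highest ratio of the class, 6.33-fold, at 94.2 and 82.8 TPM in mutant guts, against 15.4 and 12.6 TPM in w1118 guts. The other members of the class were scu and CG9547, at 2.26-fold and 3.79-fold. Amino acid and one-carbon metabolism gave 8 members besides: the mitochondrial aspartate aminotransferase Got2 had 278 and 258 TPM in mutant guts, against 94.9 and 94.6 TPM in w1118 guts, and Cth, cystathionine gamma-lyase, had 135 and 126 TPM in mutant guts, against 41.1 and 37.05 TPM in w1118 guts. Argl, argininosuccinate lyase, was 6.43-fold higher, Shmt, serine hydroxymethyltransferase, 3.30-fold, and the phosphoserine aminotransferase CG11899 3.51-fold. Men, described above, Gs1 (glutamine synthetase) and Ssadh (succinate semialdehyde dehydrogenase) completed the class.

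Small nuclear and RNA-binding proteins formed a separate group. Sm and LSm proteins are small subunits that assemble into rings on the RNAs of the splicing machinery; LSm rings also bind messenger RNA during its decay. Members were SmB, SmE, SmF, SNRPG, LSm3, LSm7, CG10418, CG9344 and CG2021, the last 3 being homologues of other LSm subunits. SNRPG had 72.9 and 135 TPM in mutant guts, against 47.9 and 43.3 TPM in w1118 guts. SmE had 57.3 and 106 TPM in mutant guts, against 39.6 and 36.8 TPM in w1118 guts, and SmF had 45.6 and 82.3 TPM in mutant guts, against 21.0 and 24.1 TPM in w1118 guts. LSm7 had the highest ratio of the group, 6.14-fold, at 52.8 and 66.2 TPM in mutant guts, against 9.40 and 9.98 TPM in w1118 guts. The 9 summed to 466 and 714 TPM over mutant guts, against 239 and 224 TPM over w1118 guts. In a list of 15 Sm and LSm genes written after the values were seen, 13 had a transcript in the table. All 13 were higher in the mutant, 9 of them members and so higher by the rule, beside 1036 of all 1761 listed transcripts. SmD1, SmD2, SmD3 and LSm1 were among the 13 without meeting the rule. SmD3, for example, had 43.1 and 74.0 TPM in mutant guts, against 34.9 and 29.1 TPM in w1118 guts, a ratio of 1.83. The splicing factor SC35 and the RNA-binding protein La, which shields the ends of new RNA polymerase III transcripts, were members as well, at 2.09-fold and 2.35-fold.

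Proteins of folding, translation, secretion and protein breakdown gave 18 members. Hsp60A, the mitochondrial chaperonin, stood at 123 and 147 TPM in mutant guts, against 64.7 and 66.0 TPM in w1118 guts, and CG11267, its Hsp10 partner, at 183 and 262 TPM in mutant guts, against 107 and 105 TPM in w1118 guts. The partners thus differed by 2.07-fold and 2.09-fold. The translation factor subunit eIF3f1 had 218 and 262 TPM in mutant guts, against 103 and 117 TPM in w1118 guts. AspRS, aspartyl-tRNA synthetase, had 77.5 and 78.2 TPM in mutant guts, against 14.5 and 17.3 TPM in w1118 guts, and Nacalpha, which binds new chains at the ribosome, had 103 and 138 TPM in mutant guts, against 47.3 and 43.3 TPM in w1118 guts. REG, an activator of the proteasome, and PSMG1, a chaperone for its assembly, were 2.13-fold and 2.20-fold higher. The ER prolyl isomerase CG2852 was the most abundant of the class, at 403 and 447 TPM in mutant guts, against 183 and 194 TPM in w1118 guts. Among the list for translation, which does not hold the large ribosomal subunit, 11 of 13 listed transcripts were higher in the mutant, but Nph was the only member; the ribosomal and initiation factor transcripts in it did not meet the rule. In the list of mitochondrial import, carriers and enzymes 7 of 8 listed transcripts were lower in the mutant, and Hsp60A was the exception. In the list of gut stress and repair genes 4 of 5 were higher, with Men, Pgd and Taldo as members. Of the UDP-glycosyltransferases and other conjugating enzymes 3 of 4 listed transcripts were higher, none at 50 TPM.

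Of the p24 family, cargo receptors of vesicles between the endoplasmic reticulum and the Golgi, 3 of 9 genes were listed, with 4 transcripts, all higher in the mutant. eca stood at 155 and 173 TPM in mutant guts, against 71.3 and 76.0 TPM in w1118 guts. p24-2 (chromosome arm 3R, 9691903 to 9692794) stood at 68.7 and 167 TPM in mutant guts, against 0.106 and 0.0745 TPM in w1118 guts. The p24-2 transcript was thus near 0 in w1118, and its mutant libraries differed by more than 2 times. Both opm transcripts were listed below 50 TPM, FBtr0073968 at 26.6 and 48.8 TPM in mutant guts, against 15.9 and 15.9 TPM in w1118 guts. eca and p24-2 are related genes close together on the chromosome, and how reads were divided between them is unknown.

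Histone chaperones of the nucleoplasmin family, which hold histones before they are placed on DNA, gave Nlp and Nph, and vig2, a paralogue of the RNA-binding protein Vig, gave 2 transcripts. Nlp (FBtr0334701) had 107 and 238 TPM in mutant guts, against 88.8 and 77.4 TPM in w1118 guts, and Nph had 92.3 and 204 TPM in mutant guts, against 74.7 and 64.8 TPM in w1118 guts. These were among the 5 members whose mutant libraries differed most. Without the second mutant library the ratios were 1.28 for Nlp and 1.32 for Nph, below the threshold of 2, so their place in the list rested on that library. The main vig2 transcript (FBtr0113354) had 114 and 189 TPM in mutant guts, against 60.2 and 54.5 TPM in w1118 guts.

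Digestive enzymes gave 6 members, with CG1304 the first by ratio. CG18179, another predicted serine protease, had 935 and 476 TPM in mutant guts, against 60.4 and 134 TPM in w1118 guts; its ratio was 4.90- to 11.7-fold over the omissions of a library. The acid lipase CG8093 was a member through both its transcripts, FBtr0087401 at 536 and 404 TPM in mutant guts, against 35.4 and 83.9 TPM in w1118 guts, and FBtr0339997 at 129.8 and 126 TPM in mutant guts, against 11.1 and 24.1 TPM in w1118 guts. Their ratios were 5.60- to 13.3-fold and 5.32- to 11.5-fold over the omissions. For CG18179 and both CG8093 transcripts the second w1118 library was more than 2 times the first. CtsK1, a cathepsin, had 104 and 245 TPM in mutant guts, against 78.5 and 78.5 TPM in w1118 guts; without the second mutant library its ratio was 1.33. Cht8, a chitinase, had 53.0 and 121 TPM in mutant guts, against 7.87 and 21.4 TPM in w1118 guts, and its ratio was 3.61- to 11.0-fold over the omissions. In the list of gut peptidases, CG1304 and CG18179 were the only members, and 5 of 8 listed transcripts were lower in the mutant. The abundant peptidase CG11911, for instance, had 1345 and 1296 TPM in mutant guts, against 5229 and 4971 TPM in w1118 guts. In the list of lipases and lipid carriers 4 of 6 listed transcripts were higher; the abundant lipase CG6295 had 1864 and 1405 TPM in mutant guts, against 3285 and 3619.7 TPM in w1118 guts.

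The class of immunity and secreted inhibitors gave 6 members. IM18, a peptide first found in the blood of infected flies, had 83.1 and 168 TPM in mutant guts, against 1.74 and 5.73 TPM in w1118 guts, and a ratio of 21.9- to 72.0-fold over the omissions of a library. Dso1 (Daisho1), a short peptide induced through the Toll pathway, had 53.8 and 76.9 TPM in mutant guts, against 22.9 and 16.2 TPM in w1118 guts. Both were higher in the second mutant library. The C-type lectin lectin-37Da had 303 and 567 TPM in mutant guts, against 119 and 188 TPM in w1118 guts, and the serpin Spn55B had 239 and 323 TPM in mutant guts, against 138 and 131 TPM in w1118 guts. CG16713, a predicted protease inhibitor of the Kunitz type, was 4.55-fold higher, and the stress kinase p38c 3.51-fold. In the list of immune-induced peptides and recognition proteins, 4 of 25 annotated genes were listed and all 4 were higher; PGRP-SA and PGRP-SB1 stayed below 50 TPM in the mutant mean. Fat body also makes these peptides. Of its 13 annotated markers 3 were listed, Tsf1 higher and Lsd-1 and FASN1 lower, with a summed level of 51.7 and 78.9 TPM over mutant guts, against 95.4 and 89.8 TPM over w1118 guts. Of 10 haemocyte markers 2 were listed, Hml and a transcript of srp, with a summed level of 1.20 and 1.32 TPM over mutant guts, against 0.957 and 0.557 TPM over w1118 guts; srp was listed at 0 in 1 w1118 library. The part of either tissue in these results was not tested.

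Among the other members were 12 of lipids, membranes and transport. The mitochondrial membrane protein Tspo had 606 and 596 TPM in mutant guts, against 212 and 246 TPM in w1118 guts, and the tetraspanin Tsp29Fa had 195 and 213 TPM in mutant guts, against 66.2 and 62.8 TPM in w1118 guts. Prip, an aquaporin, had 73.3 and 83.5 TPM in mutant guts, against 27.3 and 25.8 TPM in w1118 guts. The sugar transporter CG1208 (FBtr0113196) had 54.7 and 52.1 TPM in mutant guts, against 6.76 and 15.1 TPM in w1118 guts, its w1118 libraries more than 2 times apart and its ratio 3.53- to 7.90-fold over the omissions of a library. Ecdysteroid kinase-like genes, a family of predicted small-molecule kinases expanded in insects, gave CG9498, CG33301, JhI-26 and CG11878. These 4 were between 3.24- and 5.73-fold higher; CG9498 had 319 and 275 TPM in mutant guts, against 79.9 and 96.0 TPM in w1118 guts. CG9498 was also the member gene nearest to Kdm5 on 2L, 349.9 kb away.

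A hormone gene was also a member. Burs encodes a subunit of the hormone bursicon, which some enteroendocrine cells of the gut secrete, and had 47.1 and 61.7 TPM in mutant guts, against 13.3 and 10.7 TPM in w1118 guts. In the same libraries all 8 listed transcripts of enteroendocrine markers (Tk, AstA, AstC, Orcokinin and CCHa1, 5 of 11 genes) were lower in the mutant, and summed to 95.8 and 98.2 TPM over mutant guts, against 189 and 175 TPM over w1118 guts. Burs therefore lay in the opposite direction from the listed peptide hormones. Among 11 annotated enterocyte markers 4 were listed, nub higher and deltaTry, GATAe and Myo31DF lower, with a summed level of 263 and 276 TPM over mutant guts, against 691 and 1158 TPM over w1118 guts. Most of that sum was deltaTry, at 219 and 222 TPM in mutant guts, against 607 and 1094 TPM in w1118 guts. The nub transcript was near the floor, at 1.16 and 2.14 TPM in mutant guts, against 0.502 and 0.551 TPM in w1118 guts. Visceral muscle (3 of 10 genes), Malpighian tubule (5 of 12, summing to 338 and 378 TPM over mutant guts, against 463 and 358 TPM over w1118 guts) and proventriculus and crop markers (4 of 10) were listed in both directions. Tracheal and ovarian markers had no transcript in the table, and of 7 stem cell markers only esg did, below 3 TPM in every library. The rule left out the markers ZnT35C, Oatp58Db, Oatp58Dc, Crys and obst-B by symbol, so they could not be members. Of these, ZnT35C, a zinc transporter gene of the Malpighian tubule list, met both thresholds, at 73.9 and 84.8 TPM in mutant guts, against 31.5 and 37.03 TPM in w1118 guts. No other listed marker met them, and the part of a changed cell makeup was not tested.

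Several member genes had more than 1 transcript in the table. CG4783 was a member through both of its listed transcripts, FBtr0083823 at 722 and 759.8 TPM in mutant guts, against 266 and 282 TPM in w1118 guts, and FBtr0344285 at 47.5 and 62.1 TPM in mutant guts, against 16.8 and 17.5 TPM in w1118 guts. CG13321, Akr1B and Echs1 each had a second listed transcript that was also higher but under 50 TPM. For CG9331 all 6 listed transcripts were higher. In contrast, only 1 of the 6 listed transcripts of CG17574 was higher: FBtr0306582 had 73.2 and 88.2 TPM in mutant guts, against 20.5 and 23.2 TPM in w1118 guts, while FBtr0306580, the most abundant in w1118, had 52.5 and 46.2 TPM in mutant guts, against 114 and 102 TPM in w1118 guts. Transcripts of Tango9, like those of Men, also lay on both sides: FBtr0082508 had 56.5 and 59.1 TPM in mutant guts, against 19.9 and 25.3 TPM in w1118 guts, and FBtr0347147 had 0.964 and 1.59 TPM in mutant guts, against 3.91 and 2.38 TPM in w1118 guts. CG17574 and Tango9 were singled out after their values were seen, and how reads were shared out among transcripts that overlap is uncertain.

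The rule used group means, and the difference between libraries of a genotype was a further readout. It was not independent of the choice of members, since 1 high library can lift a mean over a threshold. Without mutant replicate 2, 42 of the 159 no longer met the rule, and without mutant replicate 1, 2 did not. In the mutant, 99 of 159 members (62.3%) were higher in replicate 2, compared with 81.7% of all listed transcripts and 60.0% of the other 150 listed transcripts with a mutant mean of at least 50 TPM. In w1118, 115 members (72.3%) were higher in replicate 2, compared with 30.1% of all listed transcripts and 34.0% of the same 150. The size of the difference was modest: the higher mutant library was a median of 1.23 times the lower, and the higher w1118 library 1.14 times. In 6 members the mutant libraries were over 2 times apart, and in 10 the w1118 libraries were. These shares describe 4 libraries and were not tested.

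Class counts are read beside the shares higher in replicate 2. In the mutant these were 81.7% of all listed transcripts and 62.3% of the members. In w1118 they were 30.1% and 72.3%. All 11 splicing and RNA-binding members, all 18 of translation, folding, secretion and proteolysis, and all 4 of the histone chaperone class were higher in mutant replicate 2, with median ratios of replicate 2 to replicate 1 of 1.41, 1.21 and 1.94. Of the dehydrogenase and sugar enzyme class 16 of 17 were higher in mutant replicate 1, with a median ratio of 0.794. In w1118, 16 of the 17 dehydrogenase and sugar enzyme members were higher in replicate 2, whereas 8 of the 11 splicing and RNA-binding members and all 4 of the histone chaperone class were higher in replicate 1. The translation, folding, secretion and proteolysis class did not follow these, with 12 of 18 higher in w1118 replicate 2 and a median ratio of 1.04. Glycolytic members lay between, with a median ratio of 1.06 in the mutant and 1.05 in w1118. The splicing and histone chaperone classes thus lay on the side of most listed transcripts in both genotypes. Over the members, the log2 differences of replicate 2 from replicate 1 in the mutant and in w1118 had a Pearson r of -0.34 (159 transcripts from the same 4 libraries, across transcripts and not samples). Over all listed transcripts it was -0.19.

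**Figure D3:**
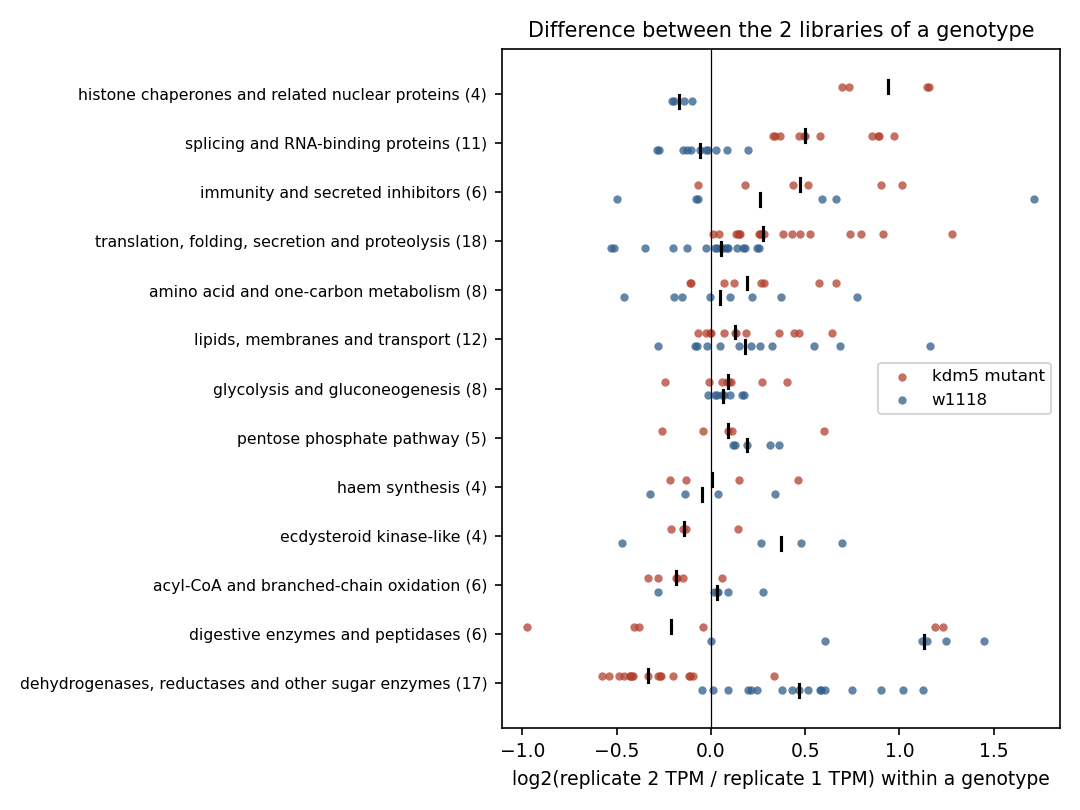
Difference between libraries of a genotype, as log2 of replicate 2 TPM over replicate 1 TPM, for members of each class with at least 3 transcripts; red points are the kdm5 mutant, blue points w1118, black ticks the class medians, and the number of transcripts stands in parentheses. The splicing, folding and histone chaperone classes lie right of 0 in the mutant, as do 81.7% of all listed transcripts. All but 1 of the dehydrogenase and sugar enzyme members lie left of it.

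In structure the members were short transcripts. The 154 matched members had a median length of 1123 bases and encoded a median of 286 residues, against 1663 bases and 412 residues over the matched listed transcripts. The other listed transcripts with a mutant mean of at least 50 TPM were as short, with a median of 964 bases and 265 residues. The shortest member protein was that of Dso1, with 42 residues, and the Sm and LSm members encoded 76 to 199 residues. By chromosome arm, 19 member genes lay on X, 33 on 2L, 40 on 2R, 19 on 3L and 39 on 3R. As shares these were 12.7%, 22.0%, 26.7%, 12.7% and 26%, beside 15.7%, 18.4%, 23.0%, 18.0% and 24.6% of all listed genes. On 2L, 4 of the 33 lay within 1000 kb of Kdm5.

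Some members were neighbours in the genome. Of the 150 member genes, 31 lay within 10 kb of another member gene, in 17 pairs. The same share over all listed genes was not computed, so clustering of the members was not tested. In an annotated run on 2R, CG44251 and CG44250 overlap, and CG13321 begins 818 bases further on (12953112 to 12955712). CG44251 had 92.5 and 174 TPM in mutant guts, against 63.6 and 64.6 TPM in w1118 guts, and the values of CG44250 and CG13321 are given above. On 3R, Nph (30003681 to 30004861) and Nlp (30004785 to 30010352) overlap on opposite strands. Nph and Nlp had like values in each library. Their member transcripts do not overlap in the annotation used: that of Nph ends at 30004699 and that of Nlp starts at 30004951. Without a stated strand setting, reads in the stretch where the genes overlap cannot be told apart. The short-chain dehydrogenases CG31549 and CG12171 stand 305 bases apart on 3R, in the same orientation. CG12171 had 445 and 369 TPM in mutant guts, against 110.2 and 131 TPM in w1118 guts, and CG31549 had 52.1 and 65.6 TPM in mutant guts, against 22.5 and 21.8 TPM in w1118 guts.

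CG34040 and CG4363 stand 678 bases apart on 2R. Also on 2R, CG12824 stands 730 bases from Gapdh1; its transcript FBtr0113050 had 376 and 297 TPM in mutant guts, against 101 and 112 TPM in w1118 guts. On 2L, Sumo, which encodes the small modifier protein SUMO, stands 892 bases from Coprox and had 56.2 and 97.7 TPM in mutant guts, against 37.7 and 26.1 TPM in w1118 guts. CG15423 and CG43773 stand 1083 bases apart on 2L. The genes eca and p24-2 stand 1925 bases apart on 3R, with CG18542 annotated between them. That distance is taken to the lower bound of the p24-2 gene, 9687402, and the member transcript of p24-2 lies further off, from 9691903. In all, 70 of the 150 member genes overlapped another annotated gene on either strand, which limits how exactly reads could be assigned to them.

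**Figure D4:**
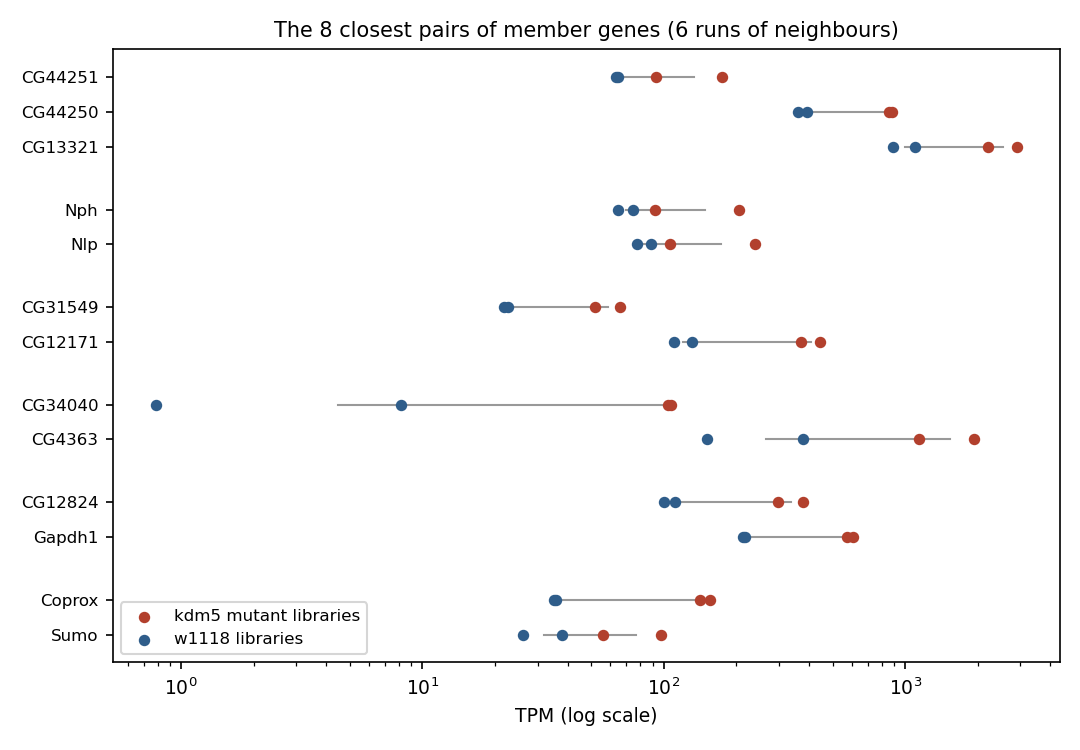
TPM (log scale) of the member genes in the 8 closest pairs, drawn as 6 runs of neighbours; red points are kdm5 mutant libraries, blue points w1118 libraries, and grey lines join the group means. For a gene with several member transcripts the most abundant is drawn. Within each run every gene is higher in the mutant, as the rule requires, by unequal amounts, from 2.07-fold for Nlp upward.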

How the data were processed

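Dissected intestines were measured by RNA sequencing. Per the file headers, the authors deposited a single table that gives each transcript's identifier, TPM in 4 libraries and p-value. Cufflinks and DESeq are named in the submitters' processing notes without a stated role. Read alignment, build, gene models and strandedness: not given in the sources used here. All of the authors' deposited p-values were below 0.05, so the table is a selected list; their adjustment is unstated. The total of 1000000 TPM per library was assumed.

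Identifiers were looked up in BDGP6.54 (Ensembl release 115), not necessarily the gene models used by the authors, and 1741 of 1761 were found. Positions are 1-based and protein lengths come from its coding sequences. limma 3.58.1 (mean-dependent prior variance, R 4.3.3, Benjamini-Hochberg) was run on log2(TPM + 1) over all 4 libraries with no replicate block, and was tested on simulated data. Values, counts and figures were made with Python 3.11.15 and matplotlib 3.10.9. Folds are given only where the w1118 mean was at least 0.5 TPM.

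The members, gene lists and classes were chosen with earlier results of these data known. Of the lists, 18 were written from those earlier results and general knowledge, and 4 after the values were read. Named members were the 12 highest by mutant mean, the 12 highest by fold and any with a w1118 mean under 0.5 TPM, those next to the thresholds, the 5 with the widest mutant difference, up to 6 genes with several listed transcripts, the 8 closest neighbouring pairs, and list members. Others named in the classes were chosen after their values were seen. The planned motif search in promoters was not analysed here. Within-genotype differences were compared without a test, as 2 libraries a genotype allow none. The alternatives tried were another pseudocount, a filter at a mean of 1 TPM, other rule thresholds, another scaling, a replicate block, and leaving out each library.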

Additional observations from a re-analysis of the deposited data

How the results depend on the processing

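The count of members depended on the thresholds: 90 with a mutant mean of at least 100 TPM, 289 with at least 25 TPM, and 79 with at least 3 times the w1118 mean, which raised their median log2 ratio to 2.02, beside 1.57 for the 159. Leaving out 1 library gave 119 to 176 members, with a median log2 ratio of 1.51 to 1.74; without mutant replicate 2, 117 of the 159 still met the rule. Scaling the libraries to the TPM outside the list lowered every log2 ratio of means by 0.15 and left 131 of the 159. limma called 1358 listed transcripts, and 540 (140 of them members) when p was adjusted over the whole annotation. Leaving out 1 library gave 580 to 1239 calls in the table (758 without mutant replicate 2, 580 and 721 without w1118 replicate 1 and 2) and 137 to 158 among the members. With the replicate number as a block it called 933 in the table and all 159 members. The numbers are not stated to pair the samples. With the numbers crossed, an alternative added after seeing the data, the block gave 1666 calls. TPM keeps no depth, so counting error is unknown.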
